A study of Mus musculus with 8 samples.

Results

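The proteasome genes examined here are the 35 rows of the deposited table, out of 22520 protein-coding genes, whose symbol is Psma, Psmc or Psmd followed by a number, or Psmb1 to Psmb7. The inducible subunits Psmb8 to Psmb10 are not members. The members were measured by mRNA-seq in 4 WT and 4 LRP1 eKO libraries from C57BL/6 mice at postnatal day 14, which the labels call liver microvesicular cells of wild type or LRP1 KO genotype and the study describes as liver endothelial cells (ECs). By the study's account WT littermates were LRP1 f/f; Cdh5-CreER-/- and LRP1 eKO mice were LRP1 f/f; Cdh5-CreER+/-, so that both groups carried the floxed Lrp1 alleles, while only LRP1 eKO mice carried the recombinase, which is driven by the promoter of the endothelial gene Cdh5. An effect of CreER itself and an effect of Lrp1 deletion therefore cannot be told apart. Primary microvascular ECs were selected with beads that carry an antibody to PECAM-1. When recombination was induced for these libraries is not given in the sources used here.

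The 26S proteasome degrades proteins that are tagged with ubiquitin. Its barrel-shaped core is built from rings of alpha and beta subunits, and in the constitutive form Psmb5, Psmb6 and Psmb7 carry the protease activity. The regulatory particle that caps the core has a base, with a ring of ATPases that unfold the substrate, and a lid, in which Psmd14 removes the ubiquitin chain. By these roles the members were 8 alpha subunits, 4 structural beta subunits, 3 catalytic beta subunits, 6 base ATPases, 3 further base subunits and 8 lid subunits, and another 3 members, Psmd5, Psmd9 and Psmd10, are chaperones that help to assemble the base and are not subunits of the finished particle. Psma8 is the alpha subunit of germ cells and is not part of the constitutive form.

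The table holds a quantile-normalized signal, so that a library's total (from 484445 to 485947) says nothing about its depth, which is unknown. No source gives the unit that was normalized or a scaling by transcript length, and signals of different genes are therefore not ranked against each other. Values of single libraries are given in the order of replicates 1 to 4. Lrp1, the targeted gene, went from 65.5 ± 13.3 (SD, n = 4) in WT to 4.41 ± 1.65 (SD, n = 4) in LRP1 eKO libraries (log2 fold change, FC, of LRP1 eKO over WT on the log2(signal + 1) scale -3.66, limma adjusted p = 2.8e-06). Markers of the labelled cell type had small signals: 8 pan-endothelial markers summed to between 22.7 and 24.4 in WT and between 21.9 and 35.4 in LRP1 eKO libraries, with means of Pecam1 of 2.09 and 3.02 and of Cdh5 of 1.86 and 3.70. Genes of other cell types had large signals, with sums over 7 markers of hepatic stellate cells and fibroblasts from 1965 to 2284 in WT and from 1741 to 2193 in LRP1 eKO libraries, and over 5 markers of smooth and skeletal muscle from 1466 to 1521 and from 1792 to 1872. The muscle sum was mostly Acta2 (means of 811 and 1066) and Tagln (674 and 764), while Myl1 went from 13.7 to 1.90. With the unit unknown these sums are no strict ranking, but they leave the endothelial identity of the libraries in doubt. Sums over 6 sinusoidal endothelial markers ranged from 7.10 to 10.3 in WT and from 7.64 to 27.6 in LRP1 eKO libraries, and over 6 hepatocyte markers from 41.8 to 61.2 and from 14.7 to 19.4, with all 3 tested hepatocyte genes lower. In such bulk libraries fewer cells of a type and less RNA per cell cannot be told apart. All 9 genes of a list of proliferating cells were lower at a limma adjusted p below 0.05, with sums from 262 to 275 in WT and from 144 to 166 in LRP1 eKO libraries, and the part of cell composition and proliferation in the results that follow was not tested.

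Most proteasome genes differed little between the genotypes. Of the 35 members, 34 reached a signal of 1 in 4 or more libraries and were tested, with signals between 11.5 and 297 in every library. At a limma adjusted p below 0.05, 3 members were higher in LRP1 eKO libraries (Psmd2, Psmd8 and Psmd11) and 6 were lower (Psma5, Psmb1, Psmb4, Psmb5, Psmd9 and Psmd10). These are 8.82% and 17.6% of the members tested, beside 19.0% of all 11391 genes tested that were higher and 22.2% that were lower (41.2% in either direction). A 2-fold change, the second threshold of the study's methods, was passed by 0 of the 34 members and by 1.66% of all genes tested, and an unadjusted p below 0.05 was found for 12 members and for 50.6% of all genes tested. The median log2 FC of the members was -0.062, beside -0.0095 over all genes tested, and no 95% interval of a member reached beyond 0.51 on the log2 scale. Signals of the genotypes did not overlap for 4 members that were higher and 8 that were lower in LRP1 eKO libraries, beside 20.0% and 22.5% of all genes tested (42.6% together).

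**Figure D1:**
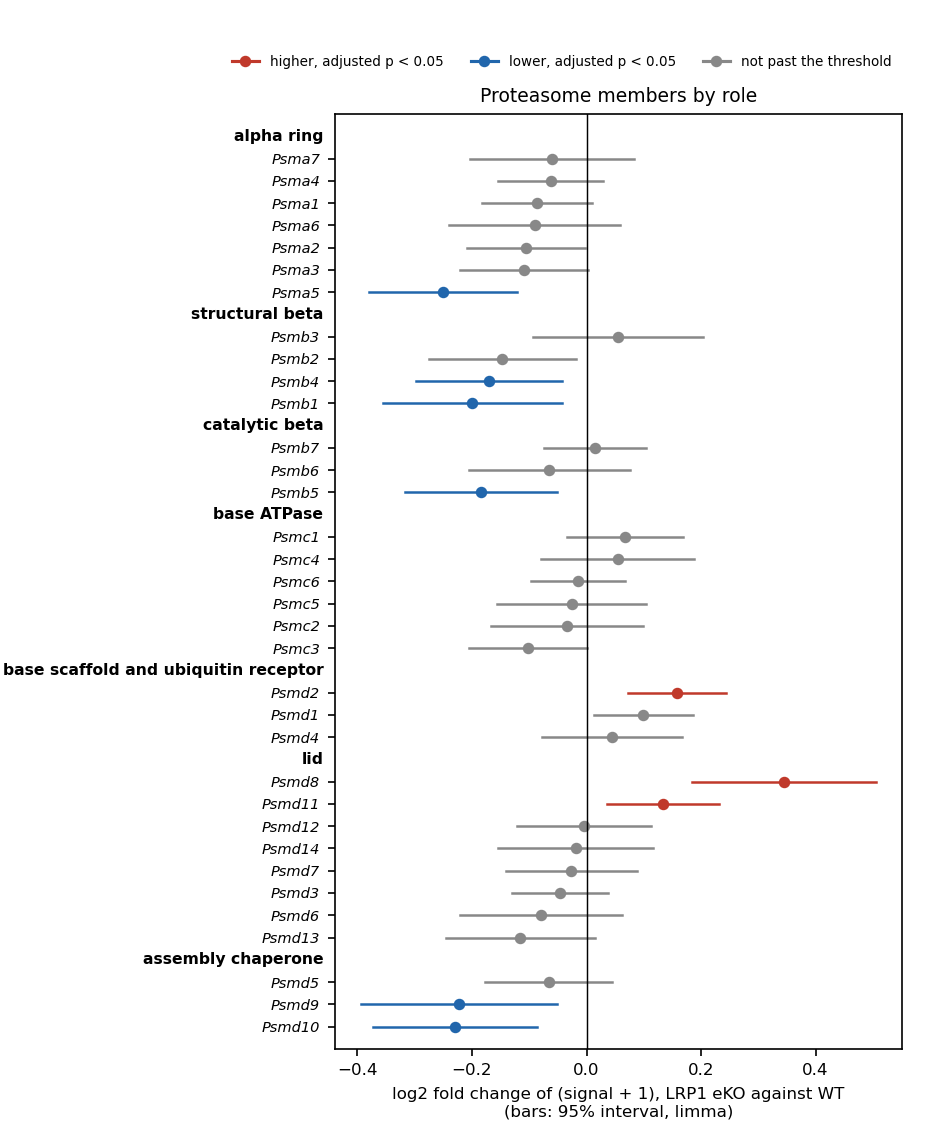
Log2 FC of each of the 34 tested members, LRP1 eKO against WT, on the log2(signal + 1) scale, grouped by role, with 95% intervals from limma (n = 4 libraries per genotype). The 6 members called lower lie in the alpha ring, the beta ring and among the assembly chaperones. The 3 called higher lie in the base and the lid. These are 17.6% and 8.82% of the members tested, beside 22.2% and 19.0% of all genes tested. Means were also lower for 6 of 8 lid members and 4 of 6 base ATPases. Differences between roles were not tested.

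The counts rest in part on single libraries. WT replicate 4 had the highest WT signal for 32 of the 34 members, and the median member in it lay 0.15 above the WT mean on the log2 scale, while the medians of the other WT libraries lay between -0.054 and -0.022. Over all genes tested this library was the farthest from the WT median for 61.7% of genes. Without it, 5 members were higher, Psmc1 and Psmd4 being added, and 5 were lower, as Psmd9 no longer passed (limma adjusted p = 0.057), beside 19.4% and 22.9% of all genes. Its removal brought the median of the members to -0.013 and turned the direction of 6 members, each of which was not past the threshold. The number of lower members was 3 without WT replicate 3 and 2, 3, 1 and 2 without LRP1 eKO replicate 1, 2, 3 or 4. With WT replicate 4 and LRP1 eKO replicate 2 left out together, 5 members were higher and 5 lower, beside 20.5% and 23.8% of all genes. Psmd2, Psmd8 and Psma5 passed the threshold whichever library was left out.

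**Figure D2:**
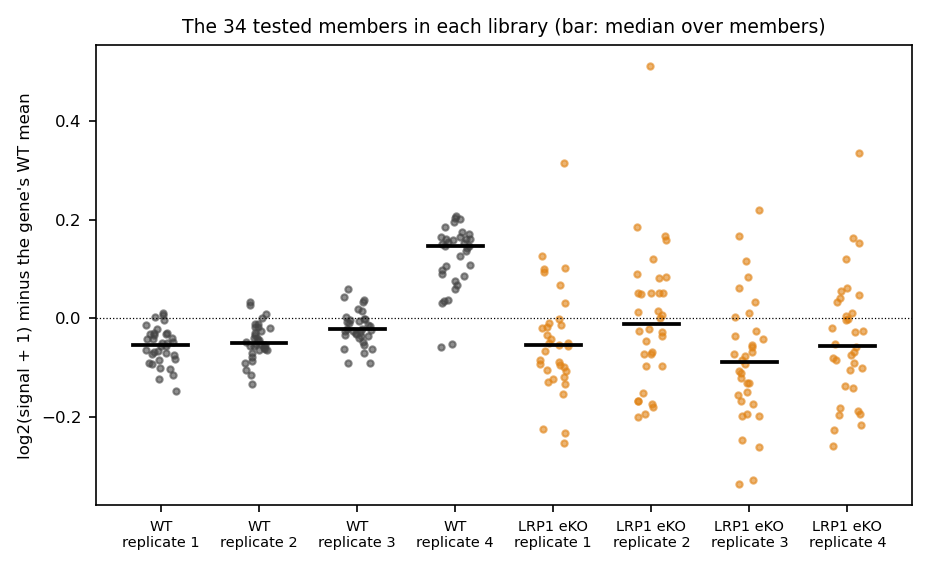
Each point is 1 of the 34 tested members in 1 library, as log2(signal + 1) minus the WT mean of that gene, and bars are medians over members. WT replicate 4 stands above the other WT libraries, and the highest point of each LRP1 eKO library is Psmd8.

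Apart from WT replicate 4, the members varied little between libraries. The median SD of a member on the log2 scale was 0.10 over the 4 WT libraries, 0.030 over WT replicates 1 to 3 and 0.045 over the LRP1 eKO libraries, and the same medians over all genes tested were 0.10, 0.056 and 0.080. Signals of the 35 members summed to 0.629%, 0.632%, 0.642% and 0.717% of the library total in WT replicates 1 to 4 and to 0.641%, 0.661%, 0.622% and 0.641% in LRP1 eKO replicates 1 to 4. Only WT replicate 4 stood apart in this sum, and the other 7 libraries of both genotypes overlapped.

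In the lid, Psmd8 showed the largest change of any member. Psmd8, which helps to hold the lid together, had signals of 197, 201, 204 and 233 in WT and of 259, 297, 243 and 263 in LRP1 eKO libraries. Every LRP1 eKO library was above every WT library, and the mean rose by 27.3%, from 208 ± 16.4 to 265 ± 22.8 (SD, n = 4 each). On the log2 scale this is 0.35 with a standard error of 0.072 (limma adjusted p = 0.0043). The exact two-sided permutation test gave p = 0.029, and 4 libraries against 4 can give no smaller value. Groups without overlap always give this value, so here and below it adds nothing to their separation. Such a separation was found for 42.6% of all genes tested. Psmd8 lies on chromosome 7 from 29174188 to 29180701 (GRCm38), and none of the 2201 stretches of 50 bases in its coding transcripts occurs in a transcript of another annotated gene. Because WT replicate 4 was the highest WT library, the fold change grew to 0.40 without it.

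The other lid subunits split into a further increase and no detected change. Psmd11, a scaffold subunit of the lid, had signals of 44.6, 47.7, 48.7 and 48.7 in WT and of 50.7, 53.0, 51.5 and 53.2 in LRP1 eKO libraries. The groups did not overlap, and the log2 FC was 0.13 (limma adjusted p = 0.033), but with 1 library left out it passed the threshold in 3 of 8 cases, with an adjusted p of up to 0.089. Psmd14, the deubiquitinase of the lid, had signals of 54.5, 56.4, 58.6 and 65.6 in WT and of 56.4, 60.8, 55.6 and 58.8 in LRP1 eKO libraries. Its groups overlapped throughout (log2 FC -0.019, 95% interval -0.16 to 0.12). Psmd13 had the lowest fold change of the lid, with signals of 61.6, 61.1, 62.3 and 70.8 in WT and of 59.6, 62.6, 55.7 and 57.8 in LRP1 eKO libraries, a difference that did not reach the threshold (log2 FC -0.12, limma adjusted p = 0.14). Log2 FCs of Psmd3, Psmd6, Psmd7 and Psmd12 lay between -0.080 and -0.0042.

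In the base, 1 of 3 scaffold and receptor subunits rose. Psmd2, the scaffold that docks ubiquitin receptors, had signals of 95.1, 96.3, 95.7 and 90.7 in WT and of 103, 108, 106 and 105 in LRP1 eKO libraries. All LRP1 eKO libraries were above all WT libraries, and the mean rose by 11.7%, a log2 FC of 0.16 (standard error 0.038, limma adjusted p = 0.0089, exact permutation p = 0.029). Of the stretches of 50 bases in the Psmd2 transcripts, 25.6% also occur in transcripts of other annotated genes, mainly Gm5422, so that part of the signal may be shared. Psmd1, the other scaffold, went from 46.9 ± 1.36 to 50.3 ± 0.597 (SD, n = 4 each) without overlap, and its log2 FC of 0.099 did not reach the threshold (limma adjusted p = 0.066). Psmd4, a receptor for ubiquitin chains, had signals of 80.7, 79.5, 80.04 and 93.2 in WT and of 85.0, 88.1, 85.1 and 85.1 in LRP1 eKO libraries. WT replicate 4 alone lay above the LRP1 eKO libraries, and the log2 FC was 0.044 (limma adjusted p = 0.54) with it and 0.098 (limma adjusted p = 0.027) without it.

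Of the 6 ATPases of the base, which form the ring that unfolds substrates and opens the gate of the core, 0 passed the threshold and 0 showed groups without overlap. Psmc1 had the highest fold change, with signals of 86.3, 87.5, 90.5 and 97.4 in WT and of 94.7, 95.8, 94.4 and 93.9 in LRP1 eKO libraries. Here too WT replicate 4 was above every LRP1 eKO library and the other WT libraries were below, so that the log2 FC of 0.067 (limma adjusted p = 0.26) became 0.10 (limma adjusted p = 0.025) without it. Psmc3 was lowest, with signals of 88.6, 92.2, 89.99 and 98.1 in WT and of 86.2, 89.1, 81.9 and 85.8 in LRP1 eKO libraries (log2 FC -0.10, limma adjusted p = 0.0996). With array weights Psmc1 was higher and Psmc3 lower past the threshold (limma adjusted p = 0.018 and 0.033). Psmc2, Psmc4, Psmc5 and Psmc6 had log2 FCs from -0.034 to 0.055.

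All 7 alpha subunits tested had lower means in LRP1 eKO libraries, as had 25 of the 34 members, and 1 of the 7 passed the threshold. Their median log2 FC was -0.090, and -0.057 without WT replicate 4. Psma5 had signals of 68.6, 69.2, 67.5 and 78.8 in WT and of 60.1, 62.4, 56.3 and 59.04 in LRP1 eKO libraries. Every LRP1 eKO library was below every WT library, and the log2 FC was -0.25 (standard error 0.058, limma adjusted p = 0.0072, exact permutation p = 0.029), or -0.20 without WT replicate 4. The Psma5 value is uncertain in 1 respect: 55.4% of the stretches of 50 bases in its coding transcripts also occur in transcripts of other annotated genes, mainly Gm8394 and Gm12989, and no source tells where reads from such stretches were counted. Psma7 had the smallest difference of the ring, with signals of 149.9, 154, 157 and 180.0 in WT and of 158, 156, 141 and 157 in LRP1 eKO libraries (log2 FC -0.061, limma adjusted p = 0.47). Without WT replicate 4 the log2 FC of Psma7 was -0.0034. Psma2 and Psma3 were without overlap between the groups, at log2 FCs of -0.11 each, but did not reach the threshold (limma adjusted p = 0.0903 and 0.105). Psma1, Psma4 and Psma6 ranged from -0.090 to -0.063 with overlap. Psma8 had signals between 0.0715 and 0.227 in the 8 libraries, below the filter, and a difference was not detected when it was fitted without the filter (limma adjusted p = 0.58).

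Among the structural beta subunits, Psmb1 and Psmb4 were lower and Psmb3 was not. Psmb1 had signals of 127, 136, 141 and 163 in WT and of 129, 123, 119 and 121 in LRP1 eKO libraries, so that WT replicate 1 lay within the range of the LRP1 eKO libraries. Its log2 FC was -0.20 (limma adjusted p = 0.045, exact permutation p = 0.057), and -0.13 (limma adjusted p = 0.041) without WT replicate 4. Psmb4 had signals of 148, 141, 152 and 169.8 in WT and of 140.2, 135, 133 and 133 in LRP1 eKO libraries. The groups of Psmb4 were separated by a narrow gap (log2 FC -0.17, limma adjusted p = 0.038), and both genes passed the threshold in 2 of the 8 cases with 1 library left out. Psmb3, with signals of 119, 118, 124 and 143 in WT and of 135, 137, 122 and 129 in LRP1 eKO libraries, had a log2 FC of 0.055 (limma adjusted p = 0.53). Psmb2 had a log2 FC of -0.15 just outside the threshold (limma adjusted p = 0.064).

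Of the 3 catalytic subunits, 1 was lower. Psmb5, which cleaves after hydrophobic residues and is the main target of proteasome inhibitors, had signals of 107, 104, 112 and 126 in WT and of 100.5, 97.7, 97.4 and 97.99 in LRP1 eKO libraries. All LRP1 eKO libraries were below all WT libraries, and WT averaged 112 ± 9.98 and LRP1 eKO 98.4 ± 1.42 (SD, n = 4 each), a log2 FC of -0.18 (limma adjusted p = 0.032, exact permutation p = 0.029). The adjusted p of Psmb5 was below 0.05 in 3 of the 8 cases with 1 library left out and at most 0.074, and 54.1% of the stretches of 50 bases in its transcripts occur in other annotated transcripts, mainly Gm3375. Psmb6, which cleaves after acidic residues, had signals of 122, 124, 119.8 and 147 in WT and of 123, 122, 122 and 121 in LRP1 eKO libraries. Apart from WT replicate 4 all libraries lay between 119.8 and 124, and the log2 FC was -0.065 with this library and 0.0027 without it (limma adjusted p = 0.43 and 0.95). Psmb7, which cleaves after basic residues, had signals of 94.0, 94.8, 95.1 and 100.1 in WT and of 95.3, 99.3, 94.2 and 99.2 in LRP1 eKO libraries, with overlap of the groups (log2 FC 0.015, 95% interval -0.074 to 0.105). Whether the 3 genes differ from each other in their change was not tested.

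**Figure D3:**
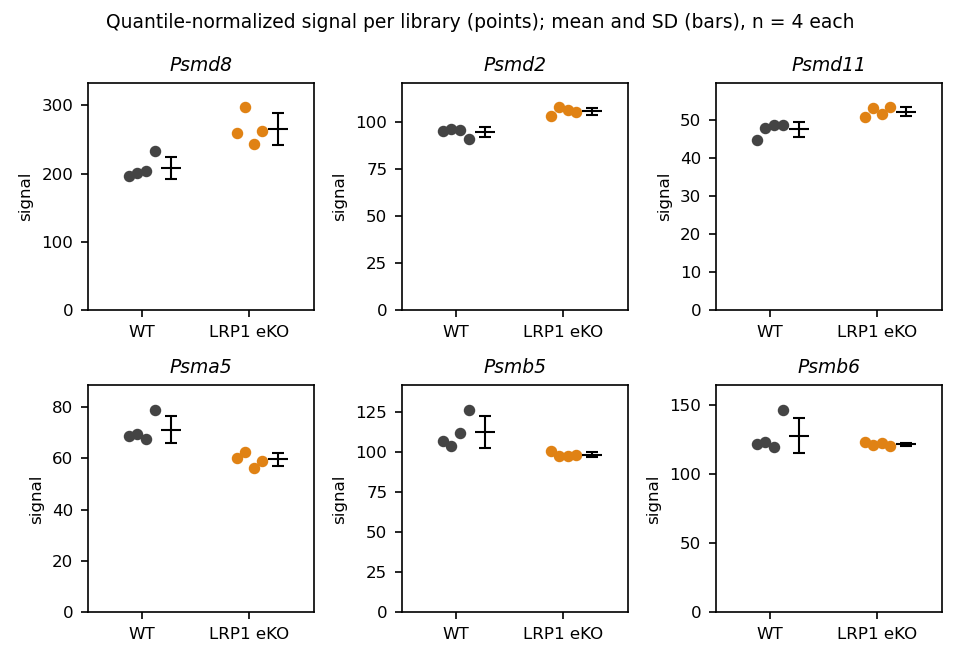
Signal in each library (points) with mean and SD (bars, n = 4 per genotype) for 6 members; the vertical axes start at 0. Psmd8, Psmd2 and Psmd11 lie higher and Psma5 and Psmb5 lower in LRP1 eKO libraries, while for Psmb6 only WT replicate 4, at 147, lies apart.

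Of the 3 chaperones that carry a Psmd name, 2 were lower. Psmd10 (gankyrin) had signals of 17.2, 17.8, 17.3 and 20.2 in WT and of 15.3, 15.9, 14.1 and 15.8 in LRP1 eKO libraries. The groups did not overlap (log2 FC -0.23, limma adjusted p = 0.018, exact permutation p = 0.029), and the adjusted p was above the threshold only without LRP1 eKO replicate 3 (limma adjusted p = 0.053). Psmd9 went from 14.1 ± 1.67 to 11.8 ± 0.451 (SD, n = 4 each), also without overlap (log2 FC -0.22, limma adjusted p = 0.041), and passed the threshold in 3 of the 8 cases with 1 library left out (limma adjusted p = 0.057 without WT replicate 4). Psmd5 had signals of 25.1, 24.4, 26.6 and 27.3 in WT and of 24.2, 25.8, 24.3 and 24.2 in LRP1 eKO libraries, and its difference was within the spread (log2 FC -0.066, limma adjusted p = 0.31).

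**Figure D4:**
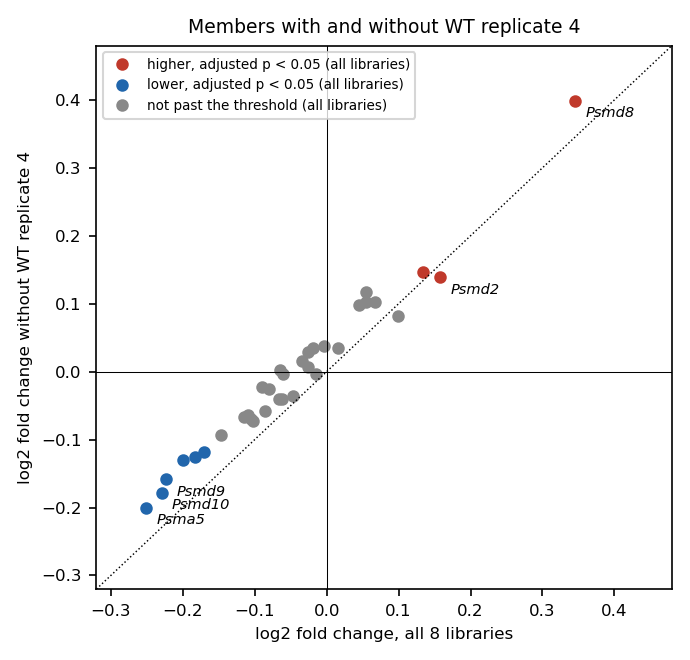
Log2 FC of the 34 tested members with all 8 libraries (horizontal axis) and without WT replicate 4 (vertical axis); colors give the result with all libraries and the dotted line marks equal values. Most points lie above the line, and Psmd8 and Psma5 stay at the ends, at 0.40 and -0.20 without that library.

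Genes that act around the particle were taken from lists of the pathway and are read against the same background of 19.0% higher and 22.2% lower. The assembly factors of the core fell most often, with 4 of 5 tested genes lower, 0 higher and a median log2 FC of -0.41. Without WT replicate 4 this median was -0.31. Psmg1 and Psmg2, which pair to build the alpha ring, had log2 FCs of -0.42 and -0.37 (limma adjusted p = 0.0024 and 0.0018), and Psmg3 and Psmg4, the second pair, of -0.41 and -0.42 (limma adjusted p = 0.0033 and 0.015). Psmg2 had signals of 17.4, 17.4, 17.6 and 20.7 in WT and of 13.5, 14.0, 13.5 and 14.7 in LRP1 eKO libraries. Each of these 4 genes was without overlap between the groups and passed the threshold with any 1 library left out. Pomp, the factor that guides the beta ring and is degraded by the finished core, had signals of 105, 109, 118 and 134 in WT and of 109, 122, 108 and 119 in LRP1 eKO libraries, and a difference was not detected (log2 FC -0.017, 95% interval -0.19 to 0.15).

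Nfe2l1, the transcription factor known to raise the expression of proteasome subunit genes when proteasome activity is low, rose by 61.0%. Its signals were 68.7, 81.5, 71.4 and 63.1 in WT and 123, 118, 113 and 104 in LRP1 eKO libraries. The groups were far apart (log2 FC 0.68, standard error 0.079, limma adjusted p = 1.5e-04), and the value stayed between 0.63 and 0.75 with 1 library left out. Ngly1, the enzyme that removes sugar chains from the Nfe2l1 protein on its way to activation, fell from 13.7 ± 0.573 to 10.9 ± 0.417 (SD, n = 4 each), a log2 FC of -0.30 (limma adjusted p = 0.0015). Ddi2, the protease that then cuts the protein, had a log2 FC of -0.072 (limma adjusted p = 0.31). Nfe2l2, a related factor that answers oxidative stress, had signals of 92.0, 91.6, 87.3 and 81.1 in WT and of 88.9, 87.0, 92.4 and 89.3 in LRP1 eKO libraries, with a log2 FC of 0.024 (limma adjusted p = 0.71). Ddi1, the remaining gene of this list, was listed at 0 in all 8 libraries, so that of 4 tested genes 1 rose, 1 fell and 2 did not pass.

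Factors of the Nfe2l1 type bind with small Maf proteins to the antioxidant response element, searched here as TGACNNNGC on either strand. RefSeq promoter windows on GRCm38.p6, from 250 bases before to 50 bases after the annotated start, were at hand for 28 of the members in 30 windows. The element was found in 5 windows (16.7%), those of Psmb5, Psmb6, Psmc6, Psmd9 and Psmd12, beside 12.4% of all 32851 windows and 14.4% of the 10765 windows of tested genes. The CCAAT box, searched on either strand, was found in 11 windows (36.7%), beside 37.4% and 37.9%, and 0 member windows held both. Windows of the catalytic subunits Psmb5 and Psmb6 and of Psmd8 are shown because the first pair carries the element close to the start, beginning 47 and 9 bases before it, and because Psmd8 had the largest change; capitals mark TGACNNNGC and all are written 5′ to 3′ on the strand of the gene.
Psmb5, chr14:54617946-54618245, minus strand: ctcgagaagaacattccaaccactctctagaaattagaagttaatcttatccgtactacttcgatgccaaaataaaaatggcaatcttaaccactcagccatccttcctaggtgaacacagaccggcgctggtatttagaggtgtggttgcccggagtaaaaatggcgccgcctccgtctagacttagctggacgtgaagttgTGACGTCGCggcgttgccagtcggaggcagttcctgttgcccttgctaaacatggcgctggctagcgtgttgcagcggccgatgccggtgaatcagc
Psmb6, chr11:70525107-70525406, plus strand: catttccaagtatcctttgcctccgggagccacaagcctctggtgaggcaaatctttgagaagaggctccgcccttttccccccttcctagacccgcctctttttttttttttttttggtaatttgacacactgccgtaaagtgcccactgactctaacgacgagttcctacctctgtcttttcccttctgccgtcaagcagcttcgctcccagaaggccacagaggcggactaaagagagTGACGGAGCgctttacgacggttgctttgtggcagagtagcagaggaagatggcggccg
Psmd8, chr7:29180624-29180923, minus strand: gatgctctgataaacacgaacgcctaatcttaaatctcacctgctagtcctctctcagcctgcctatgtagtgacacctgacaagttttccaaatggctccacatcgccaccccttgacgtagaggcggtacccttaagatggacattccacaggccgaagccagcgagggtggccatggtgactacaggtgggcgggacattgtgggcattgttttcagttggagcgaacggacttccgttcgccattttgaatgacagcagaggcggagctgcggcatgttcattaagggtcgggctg
Of the genes with the element, Psmb5 and Psmd9 were lower in LRP1 eKO libraries, and Psmb6, Psmc6 and Psmd12 did not reach the threshold. Neither motif was found in the windows of the higher members Psmd8, Psmd2 and Psmd11 or of the lower members Psma5 and Psmb4, Psmd10 held only CCAAT, and Psmb1 had no window. A match describes the letters of the window only.

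**Figure D5:**
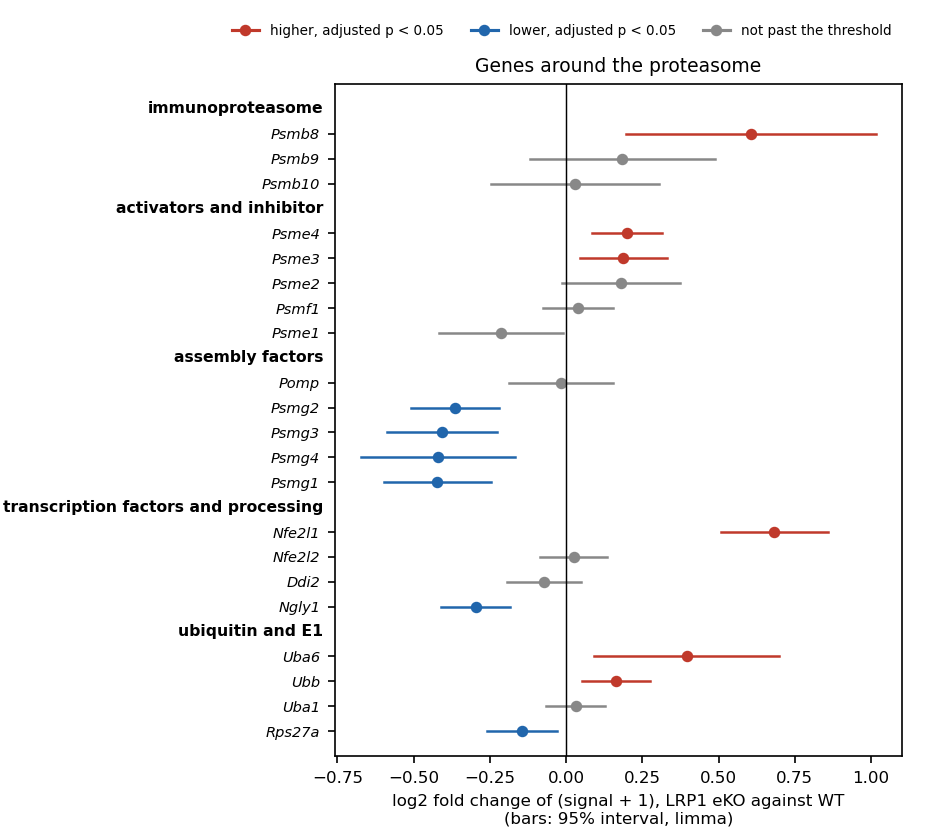
Log2 FC of genes around the proteasome, LRP1 eKO against WT, on the log2(signal + 1) scale with 95% intervals from limma (n = 4 libraries per genotype). Nfe2l1 lies at 0.68, the 4 Psmg genes lie between -0.42 and -0.37, and Pomp lies near 0.

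The inducible subunits, which take the places of the catalytic subunits in the immunoproteasome under interferon, included 1 gene of 3 tested that rose, Psmb8, the counterpart of Psmb5. Its signals were 4.14, 4.08, 5.03 and 6.38 in WT and 10.05, 5.31, 9.82 and 7.28 in LRP1 eKO libraries, so that LRP1 eKO replicate 2 lay within the WT range (log2 FC 0.61, limma adjusted p = 0.025). Psmb8 passed the threshold in 4 of 8 cases with 1 library left out (limma adjusted p up to 0.068) and not without the filter (limma adjusted p = 0.106). Signals of 9 macrophage and Kupffer cell markers summed to 183, 199.9, 214 and 109 in WT and 694, 51.9, 635 and 374 in LRP1 eKO libraries. Among LRP1 eKO libraries, replicate 2 had the lowest Psmb8 and also the lowest sum. Among WT libraries the reverse held for replicate 4, which had the lowest sum and the highest Psmb8. Clec4f, a defining marker of Kupffer cells, was listed at 0 in the WT libraries, and the part of these cells in the Psmb8 result was not tested. Psmb9 (log2 FC 0.18, limma adjusted p = 0.298) and Psmb10 (0.029, limma adjusted p = 0.87) did not reach the threshold, and Psmb11 of the thymus was at or below 0.0199 in every library. The ratio of Psmb8 to Psmb5 was set to a mean of 1 in WT libraries. It was 0.894, 0.905, 1.038 and 1.16 in WT and 2.30, 1.25, 2.32 and 1.71 in LRP1 eKO libraries, without overlap. This ratio joins a gene already called higher with a gene already called lower. The same ratios of Psmb9 to Psmb6 and of Psmb10 to Psmb7 overlapped between the groups, with LRP1 eKO means of 1.34 and 1.002.

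Of the caps that can replace the regulatory particle, Psme3 and Psme4 rose and Psme1 and Psme2 did not reach the threshold. Psme4 (PA200), a nuclear cap, had signals of 13.3, 13.6, 13.3 and 12.1 in WT and of 14.7, 15.2, 15.7 and 15.1 in LRP1 eKO libraries. Its groups did not overlap (log2 FC 0.20, limma adjusted p = 0.012), and it passed the threshold with any 1 library left out. Psme3, the other nuclear cap, had a log2 FC of 0.19 (limma adjusted p = 0.0405) and passed in 2 of 8 such cases. Psme1 and Psme2, which form the interferon-induced PA28 ring together, pointed in opposite directions at -0.21 and 0.18 (limma adjusted p = 0.086 and 0.12), and Psme2 passed without WT replicate 4 (limma adjusted p = 0.00196). Psmf1, an inhibitor of the core, had a log2 FC of 0.040.

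Among genes that supply or activate ubiquitin, Ubb and Uba6 rose and Rps27a fell, and with 1 library left out they passed the threshold in 3, 4 and 1 of 8 cases (limma adjusted p up to 0.073, 0.089 and 0.11). Ubb, a polyubiquitin gene, had signals of 547, 543, 517 and 554 in WT and of 616, 648, 595 and 563 in LRP1 eKO libraries (log2 FC 0.16, limma adjusted p = 0.027). Uba6, an E1 enzyme that activates ubiquitin, went from 5.24 ± 1.23 to 7.07 ± 0.393 (SD, n = 4 each; log2 FC 0.395, limma adjusted p = 0.041), and 0.24 without WT replicate 4. Rps27a, which encodes ubiquitin fused to a ribosomal protein, fell (log2 FC -0.14, limma adjusted p = 0.048), and Uba1, the main E1 enzyme, had a log2 FC of 0.031.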

How the data were processed

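mRNA-seq of 4 WT and 4 LRP1 eKO libraries was analysed, with groups and replicate numbers taken from the sample titles. The authors deposited 1 table of quantile-normalized signal, 1 column per library, and all columns were used. The submitters' processing notes name TopHat2, Cufflinks and mm10, while the study's methods name STAR and featureCounts. Which of these made the table is not stated, and quantile normalization removes any global shift between genotypes. Neither counts nor depths were available from the table, so precision was judged from the spread between libraries, and since the labels do not state separate animals, p-values measure only that spread.

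Log2(signal + 1) was fitted with limma 3.58.1 in R 4.3.3, with a mean-variance trend, over the 11391 genes that reached a signal of 1 in 4 or more of the 8 libraries, in place of the test on counts that the study's methods name, and p-values were Benjamini-Hochberg adjusted over all of them. The threshold was an adjusted p of 0.05. The exact permutation test was two-sided on the mean log2(signal + 1). The fit was tested on simulated data. In each role the members with the highest and lowest fold change, Psmb5 to Psmb7, Psmd14, selected pathway genes and the smallest adjusted p of each list were named, and other members were named for their calls or to account for every member. The members and lists were chosen with earlier results of these data known. Some genes of the pathway lists are not reported here. Gene positions and transcripts were from GENCODE M21. Python 3.11.15 and matplotlib 3.10.9 drew the figures. Alternatives were other pseudocounts (0.1 and 5), filters (none, and a mean signal of 5), variance models, centring on the mean of the middle genes (30% trimmed at either end), array weights, a block for replicate number, a ratio of arithmetic means, and libraries left out.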

Additional observations from a re-analysis of the deposited data

Results flagged for a closer look

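Dixon's test was applied to 106 groups of 4 libraries, over the members, the named pathway genes, Lrp1 and the median of the members. Of these, 13 held 1 library whose distance exceeded its 95% limit, where 1 in 20 would be about 5.3. The values are the gap of that library to its nearest as a share of the range. All genes share the same 8 libraries, so the groups are not independent and no excess over chance is read from the counts. WT replicate 4 was the highest WT library for the median of the members (0.845) and for Psmb6 (0.855), Psmd12 (0.8291), Psma3 (0.848), Psmd4 (0.91), Psma5 (0.847), Psmc4 (0.838), Psmd13 (0.881), Psmd7 (0.865) and Psmg2 (0.923). LRP1 eKO replicate 2 was the highest LRP1 eKO library for Psmd5 (0.929) and Psmd4 (0.971), at 25.8 and 88.1 units of signal. LRP1 eKO replicate 3 was the lowest LRP1 eKO library for Psma7 (0.859), at 141. No date or batch is given for the libraries, and no cause was tested.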

How the results depend on the processing

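Psmd8, Psmd2 and Psma5 were past the threshold in all 18 alternatives, and 28 of the 34 members kept their direction in all of them. The 3 higher and 6 lower members became 6 and 8 with array weights, 4 and 2 with no filter, 2 and 4 without a mean-variance trend, and 5 and 5 with WT replicate 4 and LRP1 eKO replicate 2 left out together. With 1 library left out, from 2 to 5 members were higher and from 1 to 5 were lower, and their median log2 fold change ranged from -0.081 to -0.013. No alternative brought a member past 2-fold (0 members). With the replicate number as a block, 2 members were higher and 3 were lower, a fit with fewer residual degrees of freedom; same-numbered libraries had correlations of their deviations of -0.086, -0.13, 0.18 and 0.038, not every library correlated best with its own number, and the numbers do not pair the libraries, so that a call lost there is no weaker effect. For 36 named genes, a value under an alternative counted as unchanged if it stayed on its side of the threshold. Where neither fit passed, its sign could differ. A ratio of arithmetic means has no p-value and counted as unchanged if it differed by less than the SD between libraries. Of 683 such values, 610 were unchanged, 61 no longer passed, 12 newly passed and none was past the threshold in the opposite direction. The cause of these changes was not tested. Unknown depth, low signals of the inducible subunits and 4 libraries per genotype limit the precision.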

Other observations

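Of 12 tested genes for ubiquitin receptors, deubiquitinases and other proteins bound to the particle, 2 rose, 2 fell and 8 did not reach the threshold. The shares of 16.7% higher and 16.7% lower stand beside 19.0% and 22.2% of all genes tested. Ube3c, a ubiquitin ligase on the proteasome, rose from 11.7 ± 0.681 to 13.6 ± 0.278 (SD, n = 4 each; log2 FC 0.21, limma adjusted p = 0.0104), and Ubqln1, a shuttle that brings substrates, by 0.20 on the log2 scale (limma adjusted p = 0.018), passing in 7 of 8 cases with 1 library left out. Its relative Ubqln2 fell by 0.20 (limma adjusted p = 0.035), with overlap of the groups, and passed the threshold in 2 of 8 cases with 1 library left out (limma adjusted p up to 0.091). Shfm1, the small lid subunit also called Sem1, which lies outside the naming rule of the members, had signals of 59.4, 60.7, 66.1 and 78.3 in WT and of 52.96, 55.2, 53.3 and 56.7 in LRP1 eKO libraries, a log2 FC of -0.26 without overlap (limma adjusted p = 0.025), and passed in 5 of 8 such cases. Adrm1, a ubiquitin receptor of the base, had signals of 55.2, 55.2, 54.0 and 59.5 in WT and of 52.2, 56.6, 51.9 and 53.3 in LRP1 eKO libraries, and a difference was not detected (log2 FC -0.063, limma adjusted p = 0.301).

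All 7 tested genes of the p97 segregase, which extracts ubiquitin-tagged proteins and hands them to the proteasome, and its cofactors had higher means. Their median log2 FC was 0.071, beside -0.0095 over all genes tested, and 2 rose (28.6%, beside 19.0% of all genes tested). Nploc4 went from 21.4 ± 1.52 to 26.3 ± 0.956 (SD, n = 4 each; log2 FC 0.28, limma adjusted p = 0.0039), and Faf2 had a log2 FC of 0.18 (limma adjusted p = 0.0245), with overlap of the groups and a call in 3 of 8 cases with 1 library left out (limma adjusted p up to 0.068), while Vcp itself lay at 216 ± 1.17 and 222 ± 5.65. Of the 8 subunits of the cytosolic chaperonin, another ring complex, 0 passed the threshold with limma, beside 41.2% of all genes tested. An unadjusted limma p below 0.05 was found for 0 of them, beside 50.6% of all genes tested. Their log2 FCs ranged from -0.095 to 0.061, and Cct5, at -0.095, had the smallest adjusted p of the list (limma adjusted p = 0.14). Ubqln1, Ubqln2, Shfm1 and Faf2 were named after their values were seen. Psmg1, Psmg3, Psmg4, Ngly1, Uba6 and Rps27a, which passed the threshold, were likewise not among the genes planned to be named. The same holds for Ddi1, Ddi2, Psmb11, Psmf1, Uba1 and Vcp, none of which passed it.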
